A study of Mus musculus with 24 samples.

Results

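The 6 genes described here, Ttr, Kl, Folr1, Clic6, Aqp1 and Otx2, are transcribed in the epithelium of the choroid plexus, and they were taken by symbol from the 55254 genes counted in both fractions of sorted hippocampal nuclei. All 6 were present, and their levels were followed through all 24 libraries to see how much choroid plexus RNA each library and genotype held. Nuclei came from the hippocampus of male C57BL/6N mice aged 6 months that were WT, lacked Mutyh (Mutyh-/-), lacked Ogg1 (Ogg1-/-) or lacked both (DKO, from a cross of both knockouts), with no other treatment. Ogg1 and Mutyh are DNA glycosylases that act on oxidised guanine and on the adenine paired with it. The nuclei were fixed, stained for NeuN, the neuronal protein encoded by Rbfox3, and sorted into a stained fraction (NeuN+, neurons) and an unstained one (NeuN-, mainly glia and any other cell type). Nuclear RNA of each fraction and genotype was sequenced in 3 replicates, which makes 8 groups. Nuclei of several animals of a genotype were pooled, and the labels leave it unsaid whether replicates came from separate animals or pools, so p-values measure the spread between these libraries, which may be technical.

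Libraries held between 56563586 and 96192142 counts. Levels are given in CPM, counts relative to library size after scaling with TMM factors within a fraction. The fractions were sequenced on different lanes, so lane and fraction cannot be told apart. Rbfox3 was between 1320 and 1670 CPM in NeuN+ and between 63.9 and 106 CPM in NeuN-. Mutyh RNA was higher, not lower, in the libraries labelled Mutyh-/- (10.1 CPM ± 0.915 in NeuN+, SD, n = 3) and DKO (9.08 CPM ± 1.79) than in WT (1.14 CPM ± 0.0738), and Ogg1 RNA in NeuN+ was 3.15 CPM ± 0.197 in Ogg1-/- and 3.04 CPM ± 0.477 in WT. Counts per gene do not show which exons were read, so neither gene checks a deletion, and groups are named by their labels throughout.

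The choroid plexus is a fringe of epithelium around fenestrated capillaries that hangs into the brain ventricles, secretes cerebrospinal fluid and lies against the hippocampus along the choroid fissure. Its epithelial cells, which are not neurons, make large amounts of transthyretin (Ttr, at chr18:20665280-20674321 on the plus strand in build GRCm38), which carries thyroid hormone and retinol-binding protein in the fluid. Of the other genes, Kl encodes klotho, a co-receptor for the hormone FGF23 that is also made by neurons of the hippocampus, Folr1 a folate receptor that moves folate into the fluid, Clic6 a chloride intracellular channel protein, Aqp1 the water channel of the apical membrane, and Otx2 the homeobox transcription factor that the epithelium needs to form and to keep its identity. In pools of nuclei, more nuclei of a cell type and more RNA of its genes per nucleus cannot be told apart.

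The genes lie on 6 chromosomes of the mouse genome (build GRCm38, GENCODE M21), so that no 2 of them are neighbours. Beside Ttr, given above, Kl spans chr5:150952607-150993817 (plus strand), Folr1 chr7:101858331-101870788 (minus), Clic6 chr16:92485736-92541243 (plus), Aqp1 chr6:55336432-55348555 (plus) and Otx2 chr14:48657677-48673819 (minus). Merged exons were 1186 bp in Ttr, 9328 bp in Kl, 2297 bp in Folr1, 3914 bp in Clic6, 2627 bp in Aqp1 and 4221 bp in Otx2. Folr1 overlaps Anapc15 and Otx2 the lncRNA Otx2os1 on the opposite strand, while Clic6 overlaps 2410124H12Rik and Otx2 also Gm49154 on its own strand. How overlapping genes and strand were handled in counting is not given in the sources used here, so the counts of these 3 genes are uncertain to that extent. In NeuN-, Otx2os1 was between 2.46 and 65.5 CPM in Ogg1-/- and between 11.5 and 20.2 CPM in WT.

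As background, the bases before the starts are shown for the genes with an entry in the RefSeq promoter table (GRCm38.p6), which were 3 of 6: Kl, Aqp1 and Otx2. Their bearing on the levels of the 6 genes was not tested. Each line gives 250 bases up to the base before an annotated start, 5′ to 3′ on the gene's strand, at chr5:150952357-150952606 for Kl, chr6:55336049-55336298 for Aqp1 and chr14:48667645-48667894 for the outermost of 4 Otx2 starts.
Kl: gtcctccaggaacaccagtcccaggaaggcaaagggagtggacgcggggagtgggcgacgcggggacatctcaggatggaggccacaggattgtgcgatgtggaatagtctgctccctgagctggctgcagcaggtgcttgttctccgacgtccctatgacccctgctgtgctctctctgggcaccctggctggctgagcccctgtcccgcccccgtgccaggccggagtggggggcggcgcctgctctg
Aqp1: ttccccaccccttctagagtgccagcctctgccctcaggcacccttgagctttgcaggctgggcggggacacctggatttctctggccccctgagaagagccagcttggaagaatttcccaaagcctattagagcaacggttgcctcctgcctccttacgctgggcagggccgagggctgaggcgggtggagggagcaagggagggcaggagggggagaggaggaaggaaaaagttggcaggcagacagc
Otx2: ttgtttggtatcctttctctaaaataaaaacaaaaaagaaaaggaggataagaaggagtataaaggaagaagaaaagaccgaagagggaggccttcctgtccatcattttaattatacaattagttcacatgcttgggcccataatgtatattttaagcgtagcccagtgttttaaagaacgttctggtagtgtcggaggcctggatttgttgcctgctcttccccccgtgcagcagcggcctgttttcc
The sequences were searched on both strands for TAATCC, the core recognised by homeodomain proteins of the Otx family, which reads GGATTA on the other strand. It was in none of the sequences above and in 1 of the 6 promoters of these genes, before another start of Otx2 at chr14:48665303-48665332 (minus strand), where 30 bases are shown with the match in capitals.
Otx2 inner start: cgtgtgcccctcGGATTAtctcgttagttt
Of all 32851 promoters in the table, 6.25% held the motif in the same 250 bases. A match describes the letters only, and its absence from a window says nothing of the factor.

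In NeuN-, Ttr, the shortest of the 6 genes, had the highest CPM in every library and spread over a 40.0-fold range. WT libraries held 27.5, 29.1 and 48.2 CPM, and those of Mutyh-/- held 16.1, 13.2 and 12.8 CPM. In Ogg1-/- the values were 5.79, 76.2 and 78.6 CPM, and in DKO 4.13, 50.9 and 165 CPM, in the order of replicates 1 to 3. Thus both the lowest and the highest library of the fraction carried the DKO label, replicate 1 of Ogg1-/- was next to lowest, and all 3 Mutyh-/- libraries lay below all 3 of WT. These CPM correspond to between 374 and 10188 counts, so counting error is small beside the differences between replicates.

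The other genes followed the same order of libraries in most respects. Clic6 was 3.44, 5.14 and 7.35 CPM in WT, 2.96, 1.91 and 2.05 in Mutyh-/-, 1.43, 9.62 and 12.1 in Ogg1-/-, and 1.16, 6.82 and 32.3 in DKO. Kl was 4.36, 5.14 and 8.32 CPM in WT, 4.14, 3.38 and 4.81 in Mutyh-/-, 2.39, 9.71 and 10.1 in Ogg1-/-, and 1.92, 7.54 and 29.3 in DKO. Otx2, the transcription factor, was 1.49, 1.49 and 2.49 CPM in WT, 0.892, 0.984 and 0.564 in Mutyh-/-, 0.51, 3.34 and 5.33 in Ogg1-/-, and 0.254, 2.49 and 10.7 in DKO. For Clic6 and Otx2 the Mutyh-/- and WT libraries did not overlap, whereas for Kl they did. Folr1 ranged from 0.175 to 3.19 CPM and Aqp1 from 0.21 to 1.77 CPM over the 12 libraries. All 6 genes were highest in DKO replicate 3, and 5 of 6 were lowest in DKO replicate 1, the exception being Folr1, which was lowest in Ogg1-/- replicate 1 (12 counts).

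**Figure D1:**
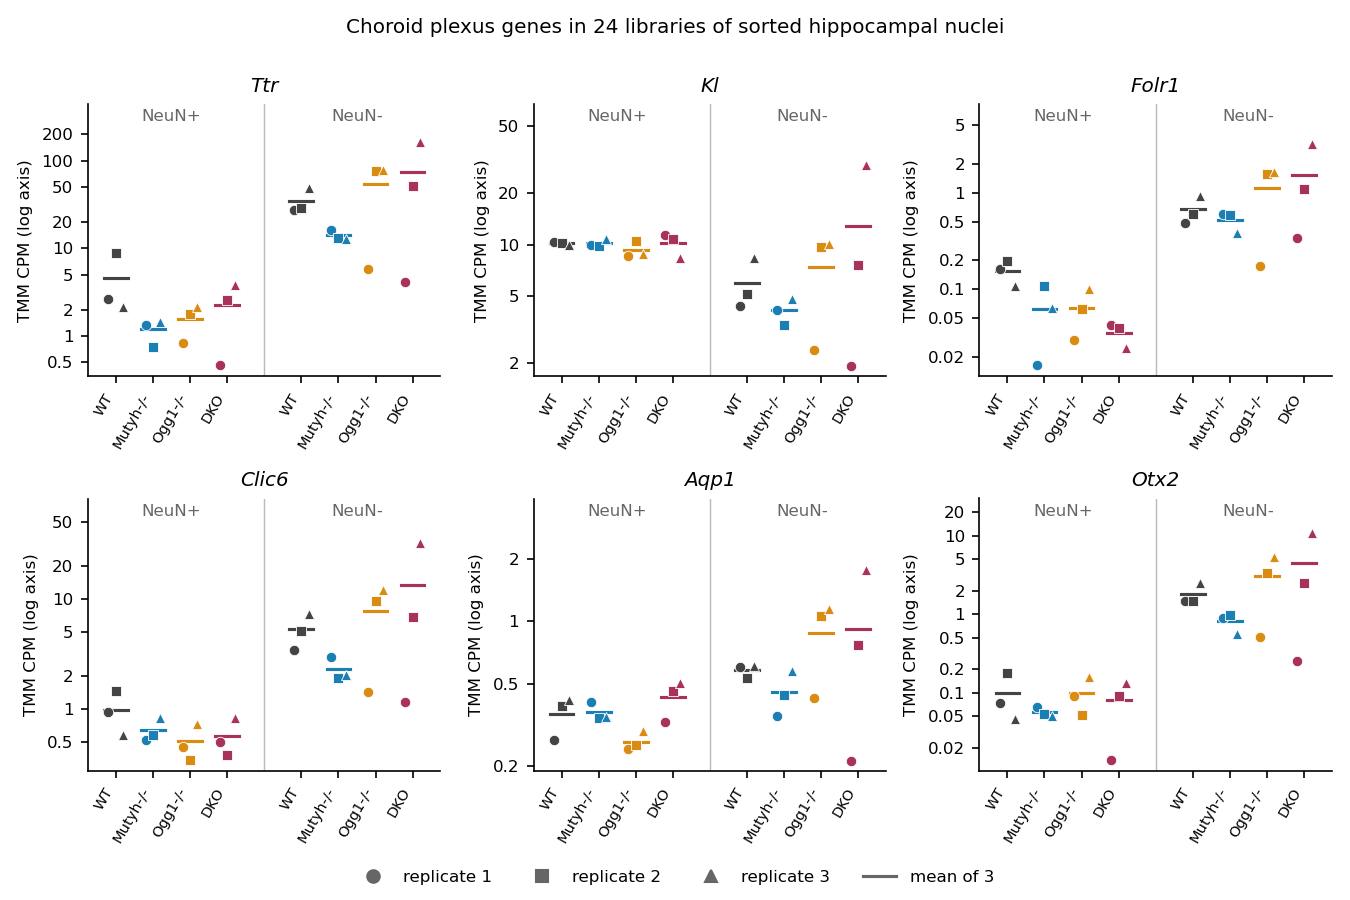
TMM CPM (log axis) of each choroid plexus gene in the 24 libraries, by fraction and genotype, with 1 point per library, its shape giving the replicate, and a bar at the mean of 3. In NeuN- the points of Ogg1-/- and DKO are spread widest, from 4.13 to 165 CPM for Ttr in DKO, while Kl is nearly level in NeuN+ between 8.36 and 11.4 CPM.

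In NeuN+, Ttr was lower and less uneven. WT libraries held 2.67, 8.91 and 2.16 CPM, those of Mutyh-/- 1.35, 0.757 and 1.46, those of Ogg1-/- 0.825, 1.76 and 2.13, and those of DKO 0.465, 2.59 and 3.79. WT replicate 2 stood above all others, and all WT values exceeded all values of Mutyh-/- and of Ogg1-/-, in the case of Ogg1-/- by little (2.16 against 2.13 CPM). That library was also the highest of NeuN+ for Folr1, Clic6 and Otx2. Clic6 lay between 0.346 and 1.45 CPM and Aqp1 between 0.24 and 0.505 CPM. Folr1 was read only 1 to 13 times per library and Otx2 1 to 14 times. Kl differed from these, with 8.36 to 11.4 CPM in all 12 libraries, a 1.37-fold range, and was highest in DKO replicate 1, the library where Ttr was lowest.

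Summed over the 6 genes, NeuN- libraries held between 8.02 and 242 CPM (median 40.0), a 30.2-fold range, and NeuN+ libraries between 10.2 and 21.3 CPM (median 13.1), a 2.1-fold range. In NeuN- the sum was 37.9, 42.0 and 67.9 CPM in WT, 20.5 to 25 in Mutyh-/-, 10.7 to 109 in Ogg1-/-, and 8.02, 69.6 and 242 in DKO. The largest sum was 0.0248% of that library's counts. Ttr made up between 51.5% and 75.1% of the sum in NeuN- and between 3.64% and 41.8% in NeuN+, where Kl took most of the rest. Levels between genes compare only per length. Per kilobase of merged exons the median over NeuN- libraries was 23.9 CPM for Ttr, 1.1 for Clic6, 0.533 for Kl, 0.353 for Otx2, 0.262 for Folr1 and 0.224 for Aqp1. The ranges over libraries of genes next to each other in this order overlapped, that of Ttr (3.48 to 139) with that of Clic6 (0.296 to 8.25) included. For Ttr the overlap is between different libraries only. Within each NeuN- library Ttr, the shortest gene with the highest CPM, was also highest per kilobase. Clic6 had at most 28.1 counts per 100 Ttr counts there. In NeuN+ the median per kilobase was 1.64 CPM for Ttr and 1.08 for Kl, whose ranges overlapped, and at most 0.148 for the other genes, which all lay below the lowest Kl value of 0.896.

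Proportions to Ttr were narrowest for Otx2 and Clic6. In NeuN- each 100 Ttr counts came with 4.39 to 8.82 counts of Otx2 (median 5.47) and 12.5 to 28.1 counts of Clic6 (median 15.8). Kl accompanied Ttr at 12.7 to 46.5 counts (median 17.7), and its highest proportions, 46.5 and 41.3, were in DKO replicate 1 and Ogg1-/- replicate 1, the libraries with least Ttr. Proportions of Folr1 were 1.75 to 8.29 and those of Aqp1 1.07 to 7.3. In NeuN+ the proportion of Kl ran from 114 to 2460 per 100 Ttr counts.

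Likeness to Ttr was measured as Pearson's r of log2 CPM over the 12 libraries of a fraction, after the genotype means were removed. It is a description without a p-value, since the libraries share depth and scaling and the genes were chosen together. In NeuN-, r was 0.982 for Clic6 and Otx2, 0.967 for Kl and Folr1 and 0.942 for Aqp1 (Spearman's rho 0.951, 0.965, 0.916, 0.944 and 0.846). Without DKO replicate 1 and Ogg1-/- replicate 1, which lay farthest from the median, r was 0.969, 0.918, 0.953, 0.948 and 0.696. The 5 genes with a mean of at least 1 CPM most like Ttr, of 21207 compared, were Htr2c (r = 0.992), Cldn2 (0.987), Gmnc (0.985), Cdh3 (0.985) and Gm534 (0.984). Cldn2 and Cdh3, with means of 1.22 and 1.29 CPM, passed that filter through DKO replicate 3 (5.22 and 5.82 CPM), where Ttr was highest. The filter thus favours genes high in that library, and their place is no support. Htr2c, a serotonin receptor abundant in choroid plexus epithelium, was 45.5, 53.4 and 76.5 CPM in WT and 7.09, 97.5 and 372 CPM in DKO of NeuN-. Cldn2 encodes the claudin of leaky tight junctions and Gmnc a regulator of multiciliated cells. Without the same libraries, r was between 0.793 and 0.99 for these 5. In NeuN+, r with Ttr was 0.854 for Otx2, 0.677 for Aqp1, 0.514 for Clic6, 0.0763 for Folr1 and -0.329 for Kl (rho 0.783, 0.552, 0.469, 0.266 and -0.05), and it rests on few counts for Otx2 and Folr1. Without DKO replicate 1 and Ogg1-/- replicate 1 of NeuN+, r was 0.781, 0.325, 0.721, 0.022 and -0.123, so that the order of Aqp1 and Clic6 turned. Its 5 most similar genes of 20013, Gm45823 (r = 0.943), Dus3l (0.922), Gm10876 (0.918), 9330151L19Rik (0.899) and 5031434O11Rik (0.891), varied at most 1.38-fold over libraries in which Ttr varied 19.2-fold, and none of them is on the list of other choroid plexus genes. Htr2c in NeuN+ stayed between 45.1 and 62.6 CPM.

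**Figure D2:**
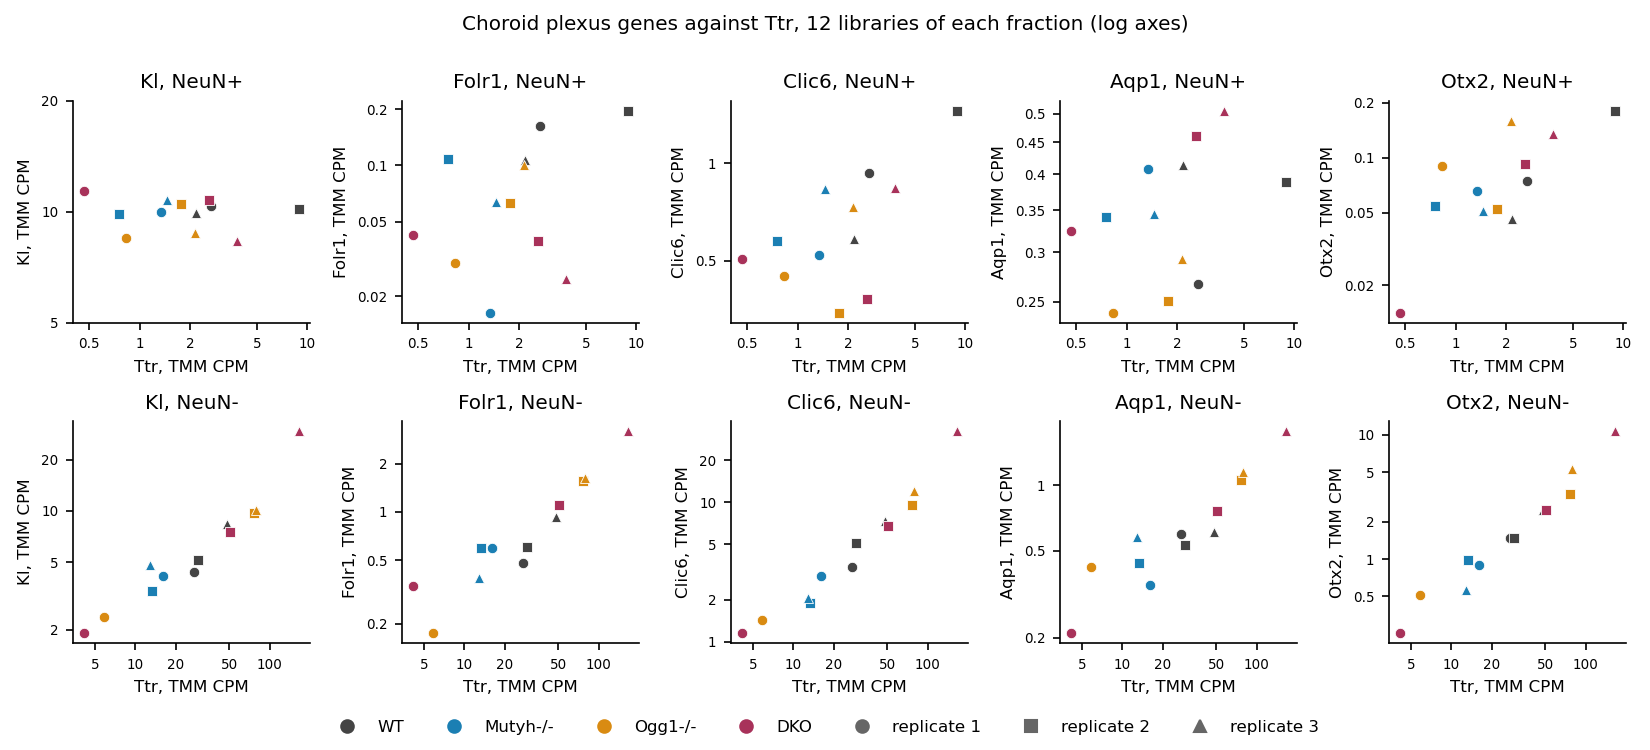
TMM CPM of each gene against that of Ttr (log axes) in the 12 libraries of NeuN+ (upper row) and of NeuN- (lower row), coloured by genotype with the shape giving the replicate. In NeuN- every gene rises with Ttr up to DKO replicate 3 at 165 CPM of Ttr, and in NeuN+ Kl lies level between 8.36 and 11.4 CPM.

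The spread between replicates of a genotype set these genes apart from most others in NeuN-. The SD of log2 CPM within genotypes was 1.75 for Ttr, 1.61 for Otx2, 1.49 for Clic6, 1.2 for Folr1, 1.17 for Kl and 0.848 for Aqp1, where the median of all 31863 tested genes was 0.175. Only 31 genes (0.0973%) had a larger SD than Ttr and 618 (1.94%) a larger one than Aqp1. In NeuN+ the SD was 1.05 for Ttr, which 50 of 30132 genes exceeded, 0.523 for Clic6, 0.243 for Aqp1 and 0.149 for Kl, against a median of 0.16. Within a genotype, the same replicate number was highest for Ttr in both fractions in 2 of 4 genotypes (replicate 3 in Ogg1-/- and in DKO) and lowest in both in the same 2 genotypes (replicate 1).

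Whether loss of either glycosylase or of both changed these genes was tested in each fraction with edgeR's quasi-likelihood test across all genes, with Benjamini-Hochberg adjustment, and calls needed both an adjusted p below 0.05 and a log2 fold change beyond 0.5 in either direction. In NeuN- all 6 genes were tested and 0 of 18 differences from WT were called, where 0.273%, 0.229% and 0.116% of 31863 genes were called in Mutyh-/-, Ogg1-/- and DKO. None of the 18 had an unadjusted p under 0.05 either (13.7%, 11.8% and 12.4% of all genes did), and DESeq2 called 0. In Mutyh-/- all 6 log2 fold changes were below 0, at -1.32 for Ttr (SE 0.98, 95% interval -3.44 to 0.80, adjusted p = 0.588), -1.20 for Clic6, -1.16 for Otx2, -0.53 for Kl, -0.36 for Folr1 and -0.35 for Aqp1. The 3 genes without overlap between Mutyh-/- and WT, Ttr, Clic6 and Otx2, stand beside 10.2% of all genes that were lower without overlap. When WT and Mutyh-/- alone were fitted, so that the spread of Ogg1-/- and DKO did not enter, Ttr was called (log2 fold change -1.32, adjusted p = 0.0308), and no other gene of the 6 was. The share of all genes called in that fit is not given here. Over the alternatives that did not leave out 1 library it was 70 to 231 genes, beside 87 in the main fit.

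In Ogg1-/- and DKO of NeuN- all 12 log2 fold changes were above 0, with wide intervals. Ttr differed from WT by 0.61 in Ogg1-/- (SE 0.95, 95% interval -1.45 to 2.67, adjusted p = 0.866), 1.15 without Ogg1-/- replicate 1 and 0.23 without replicate 3, and by 1.07 in DKO (SE 0.95, 95% interval -1.002 to 3.134, adjusted p = 0.678). The DKO values were 1.33 for Clic6, 1.28 for Otx2, 1.17 for Folr1, 1.11 for Kl and 0.61 for Aqp1, and for every gene the groups overlapped with WT, in DKO as in Ogg1-/- (17% and 19.8% of all genes had no overlap). The direction in DKO rested on a single library. Without DKO replicate 3 the log2 fold change in DKO was -0.37 for Ttr, -0.45 for Clic6, -0.48 for Otx2, -0.36 for Kl, -0.32 for Aqp1 and 0.05 for Folr1. Without DKO replicate 1 that of Ttr was 1.63.

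In NeuN+, Folr1 and Otx2 had too few counts to pass the filter, and 0 of the 12 differences of the other 4 genes were called, where 0.428%, 0.574% and 0.302% of 30132 genes were called in Mutyh-/-, Ogg1-/- and DKO. DESeq2 likewise called 0. An unadjusted p under 0.05 was found for Ttr in Mutyh-/- and Ogg1-/- and for Clic6 in Ogg1-/- and DKO, 4 of 12, where 18.7%, 12.3% and 13.5% of all genes had one. Ttr was lower than in WT by a log2 fold change of -1.92 in Mutyh-/- (SE 0.61, 95% interval -3.22 to -0.62, adjusted p = 0.124), -1.52 in Ogg1-/- (SE 0.57, adjusted p = 0.273) and -0.99 in DKO (SE 0.56, adjusted p = 0.465). The WT libraries lay wholly above those of Mutyh-/- and Ogg1-/- for Ttr, as for 10.8% and 10.2% of all genes. For the untested Folr1 they lay above those of DKO (7 to 13 against 2 to 3 counts), as for 9.49% of all genes, and above those of Ogg1-/- only after scaling (the closest were 0.107 CPM from 7 counts and 0.101 CPM from 9 counts). Without WT replicate 2 the 3 differences of Ttr were -0.996, -0.60 and -0.06. Where no filter on low counts was applied, Ttr was called in Mutyh-/- (adjusted p = 0.0039) and in Ogg1-/- (adjusted p = 0.0243). The share of all genes called at that setting is not given here. Over the alternatives that did not leave out 1 library, 113 to 625 genes were called in Mutyh-/- and 172 to 308 in Ogg1-/-. The main fit called 129 and 173. Clic6 differed by -0.60, -0.96 and -0.78 (adjusted p between 0.263 and 0.388), and without WT replicate 2 by -0.22, -0.58 and -0.39. Kl differed by 0.01, -0.13 and 0.00, and Aqp1 by 0.03, -0.44 and 0.27. For Kl the 95% interval was -0.22 to 0.23 in Mutyh-/- and in DKO and -0.36 to 0.09 in Ogg1-/-.

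**Figure D3:**
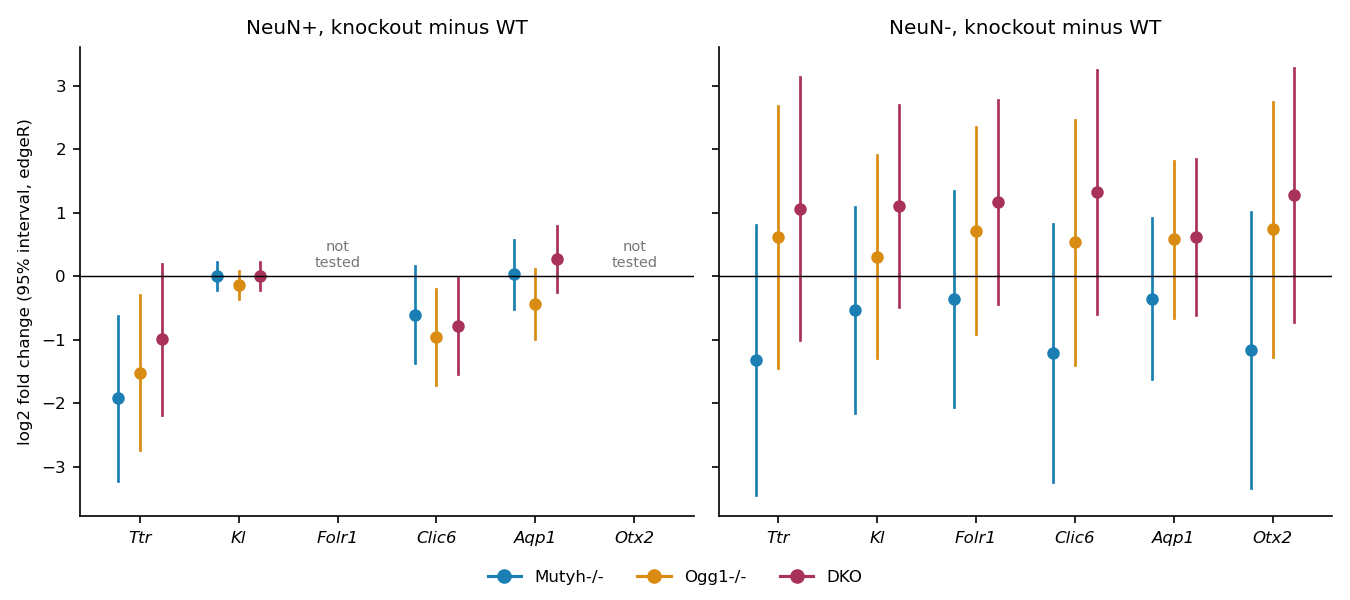
Log2 fold change of each knockout against WT (points) with its 95% interval from the edgeR fit (lines), for NeuN+ on the left and NeuN- on the right; Folr1 and Otx2 were not tested in NeuN+. In NeuN- each interval includes 0, with Mutyh-/- below it and Ogg1-/- and DKO above it for all 6 genes, while in NeuN+ Ttr is at -1.92, -1.52 and -0.99.

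Between knockouts, 0 of 12 differences were called in NeuN+ and 0 of 18 in NeuN-, by edgeR and by DESeq2, where the share of all genes called was 0.139% for DKO against Mutyh-/-, 0.216% for DKO against Ogg1-/- and 0.485% for Ogg1-/- against Mutyh-/- in NeuN+, and 0.122%, 0.132% and 0.521% in NeuN-. Those at an unadjusted p under 0.05 were 1 of 12 and 4 of 18, beside 6.86%, 4.26% and 12.7% of all genes in NeuN+ and 11%, 4.34% and 11.5% in NeuN-. The 4 in NeuN- were all differences of DKO from Mutyh-/-, at 2.53 for Clic6 (SE 0.94, adjusted p = 0.373), 2.44 for Otx2, 2.39 for Ttr and 1.64 for Kl. For all 4 genes these groups overlapped, and DKO replicate 1 lay below every Mutyh-/- library. Clic6 was 1.16 to 32.3 CPM in DKO and 1.91 to 2.96 CPM in Mutyh-/-. In NeuN+, Aqp1 was 0.71 higher in DKO than in Ogg1-/- (SE 0.25, adjusted p = 0.884), with 0.324 to 0.505 against 0.24 to 0.293 CPM and so no overlap, as for 4.25% of all genes, and its Ogg1-/- libraries also lay below those of Mutyh-/- (0.342 to 0.408 CPM), as for 7.72% of all genes. The effect of a genotype did not pass the threshold of an adjusted p under 0.05 for a difference between fractions in any of 18 tests, where 0.0209%, 0.0537% and 0.0567% of 33523 genes passed it, and DESeq2 also called 0. For Ttr the effect in NeuN+ minus that in NeuN- was -0.61 in Mutyh-/- (95% interval -3.51 to 2.30), -2.11 in Ogg1-/- (-4.82 to 0.60) and -2.04 in DKO (-4.69 to 0.62). Of the 18, 1 had an unadjusted p under 0.05, Folr1 in DKO (-3.26, SE 1.29, adjusted p = 0.438), but Folr1 and Otx2 entered this fit only through NeuN-, with 1 to 14 counts per NeuN+ library, so their estimates say little. Of all genes, 8.58%, 7.09% and 9.4% had an unadjusted p under 0.05 in Mutyh-/-, Ogg1-/- and DKO.

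Between fractions, calls needed an adjusted p below 0.05 and a log2 difference beyond 1 in a fit of all 24 libraries, and edgeR and DESeq2 each called 4 of 6 genes in WT and 4 over the mean of genotypes. In WT, Ttr was lower in NeuN+ by a log2 difference of -2.69 (SE 0.90, adjusted p = 0.0106), Clic6 by -2.17 (SE 0.81, adjusted p = 0.0203), Folr1 by -1.86 (SE 0.74, adjusted p = 0.0297) and Otx2 by -3.92 (SE 1.09, adjusted p = 0.00287), and 42.9% of all genes were called, 21.6% as lower. Folr1 and Otx2 entered this fit through NeuN-, where they are high, so that their calls are no support for the group. Aqp1 (-0.46, adjusted p = 0.399) and Kl (1.02, adjusted p = 0.105) were not called, Kl being the only gene of the 6 with a higher estimate in NeuN+. Without NeuN+ WT replicate 1, NeuN+ WT replicate 3 or NeuN- WT replicate 3, the calls of Folr1 and Clic6 were lost and 2 of 6 stayed. Over the mean of the 4 genotypes the differences were -3.88 for Ttr (SE 0.49), -4.40 for Otx2, -3.39 for Folr1 and -2.92 for Clic6, all called (adjusted p between 1.13e-07 and 1.31e-06), where 45% of all genes were called, 23.3% as lower. Aqp1 at -0.70 (adjusted p = 0.00973) and Kl at 0.77 (adjusted p = 0.0134) fell under the size threshold, and Kl was called higher in NeuN+ without NeuN- DKO replicate 3 (1.14). The fractions overlapped for Ttr, since on the scale of the joint fit NeuN+ WT replicate 2 (9.64 CPM) exceeded NeuN- Ogg1-/- replicate 1 (5.36 CPM) and DKO replicate 1 (3.81 CPM).

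A list of 20 other genes of choroid plexus epithelium showed the same libraries apart, with 19 of 20 highest in NeuN- DKO replicate 3 and 10 of 20 lowest in DKO replicate 1. In NeuN- 12 of the 20, like 6 of the 6 described above, varied over 5-fold between libraries. The share of all genes for these counts is not given here, and some of the 20 were low (median 0.272 CPM for Steap1). Highest in DKO replicate 3 were also 8 of 8 fibroblast, 3 of 6 endothelial and mural, 3 of 8 ependymal and 1 of 8 neuronal genes. Lowest in DKO replicate 1 were also 5 of 8 neuronal genes, but 0 of 8 fibroblast, 0 of 6 endothelial and mural and 0 of 8 ependymal genes. None of those 4 lists had a gene with over 5-fold range in NeuN-. By edgeR 0 of the 20 were called in any knockout in either fraction, and 10, 1 and 3 of the 18 tested in NeuN+ and 1, 0 and 2 of the 20 in NeuN- had an unadjusted p under 0.05 in Mutyh-/-, Ogg1-/- and DKO, beside 18.7%, 12.3% and 13.5% of all genes in NeuN+ and 13.7%, 11.8% and 12.4% in NeuN-. DESeq2 called 1, Ace, in Mutyh-/- of NeuN+. Their median log2 fold change in NeuN- was -0.52 in Mutyh-/-, 0.42 in Ogg1-/- and 0.87 in DKO, where that of all genes was -0.01, 0.00 and 0.01, and that of the 6 genes was -0.85, 0.60 and 1.14. In NeuN+ the 18 tested had medians of -0.46, -0.20 and -0.22. The 4 most abundant genes of the list were mixed. Prlr, the prolactin receptor, ranged from 0.928 to 38.0 CPM in NeuN- and Car12, a carbonic anhydrase, from 3.11 to 25.6 CPM, but in NeuN+ they lay at 6.64 to 11.4 and 34.5 to 48.9 CPM, so that every NeuN+ library exceeded every NeuN- library for Car12. Trpv4, a cation channel, ranged from 8.47 to 34.9 CPM in NeuN-. Enpp2, which makes lysophosphatidic acid and is also strong in oligodendrocytes, ranged only from 674 to 904 CPM there and gave most of the list's sum, which varied 1.71-fold (737 to 1260 CPM). That sum was lowest in Ogg1-/- replicate 1.

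Genes that partner or resemble the members (11 genes) had steadier sums, of 417 to 486 CPM in NeuN- and 79.2 to 92 CPM in NeuN+. They are the klotho relative Klb and its receptor partner Fgfr1, the folate carriers Folr2, Slc19a1 and Slc46a1, the transthyretin partner Rbp4, the thyroid hormone transporter Slco1c1, the chloride channel proteins Clic4 and Clic5, Aqp4 and Otx1. Of these 1 was called against WT in NeuN-, Clic5, which was lower in Mutyh-/- by a log2 fold change of -0.91 (SE 0.13, adjusted p = 0.0125), and 0 in NeuN+ by edgeR, where 4, 1 and 4 of the 11 had an unadjusted p under 0.05 (18.7%, 12.3% and 13.5% of all genes). In NeuN- 2, 3 and 6 of the 11 had one in Mutyh-/-, Ogg1-/- and DKO (13.7%, 11.8% and 12.4% of all genes). There 5 of 11 were highest in DKO replicate 3, and 0 of 11 varied over 5-fold between libraries. DESeq2 called Clic5 in Mutyh-/- and also in DKO of NeuN-. Clic5 and Ace are named because they were called, after their values were seen.

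Markers of ependymal cells, of fibroblasts and of the cells of vessels were read beside these values. The sum of 8 ependymal genes in NeuN- lay between 11.6 and 21.6 CPM and was highest in Mutyh-/- replicate 2, and Foxj1, the regulator of their cilia, between 2.8 and 4.92 CPM. By genotype that sum was 17.8 to 21.4 CPM in DKO and 11.6 to 12.8 CPM in WT, without overlap. It was 21.4 CPM in DKO replicate 1, the library with the lowest sum of the 6 choroid plexus genes. By gene, 5 of the 8 had no overlap between DKO and WT there, beside 17% of all genes. The sum of 8 genes of meningeal and stromal fibroblasts lay between 31.5 and 94.1 CPM and was highest in DKO replicate 3, as were all 8 of these genes, with Dcn between 2.1 and 5.2 CPM. For 6 endothelial and mural genes the range was 39.3 to 58.7 CPM, highest in the same library, with Cldn5 between 0.474 and 1.05 CPM. None of these 3 lists had a gene with over 5-fold range in NeuN-, and edgeR called 0 of their genes in a knockout, with at most 6 of 8 fibroblast genes (DKO of NeuN-) and 5 of 8 ependymal genes (the same group) at an unadjusted p under 0.05, which 12.4% of all genes had there. In that group all log2 fold changes of both lists were above 0, with medians of 0.64 for fibroblast and 0.79 for ependymal genes. DESeq2 called the fibroblast gene Col1a1 in Ogg1-/- and DKO of NeuN-, Dcn in DKO of NeuN+ and the mural gene Rgs5 in Mutyh-/- of NeuN+. Among glia, Aqp4 of astrocytes ranged from 58.6 to 81.1 CPM, Mbp of oligodendrocytes from 1870 to 2620 CPM, Pdgfra of their precursors from 157 to 197 CPM and Cx3cr1 of microglia from 174 to 213 CPM. Aldh1l1, an astrocyte enzyme, was called higher in Ogg1-/- of NeuN- (log2 fold change 0.52, adjusted p = 0.0483), and DESeq2 called it and Gfap there and Gfap in DKO. In NeuN+ WT replicate 2, where Ttr was highest, 3 of 6 endothelial and mural genes and 10 of 20 other choroid plexus genes were at their highest too. The share of all genes highest in that library is not given here. The part of any of these cells in the values of the 6 genes was not tested.

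**Figure D4:**
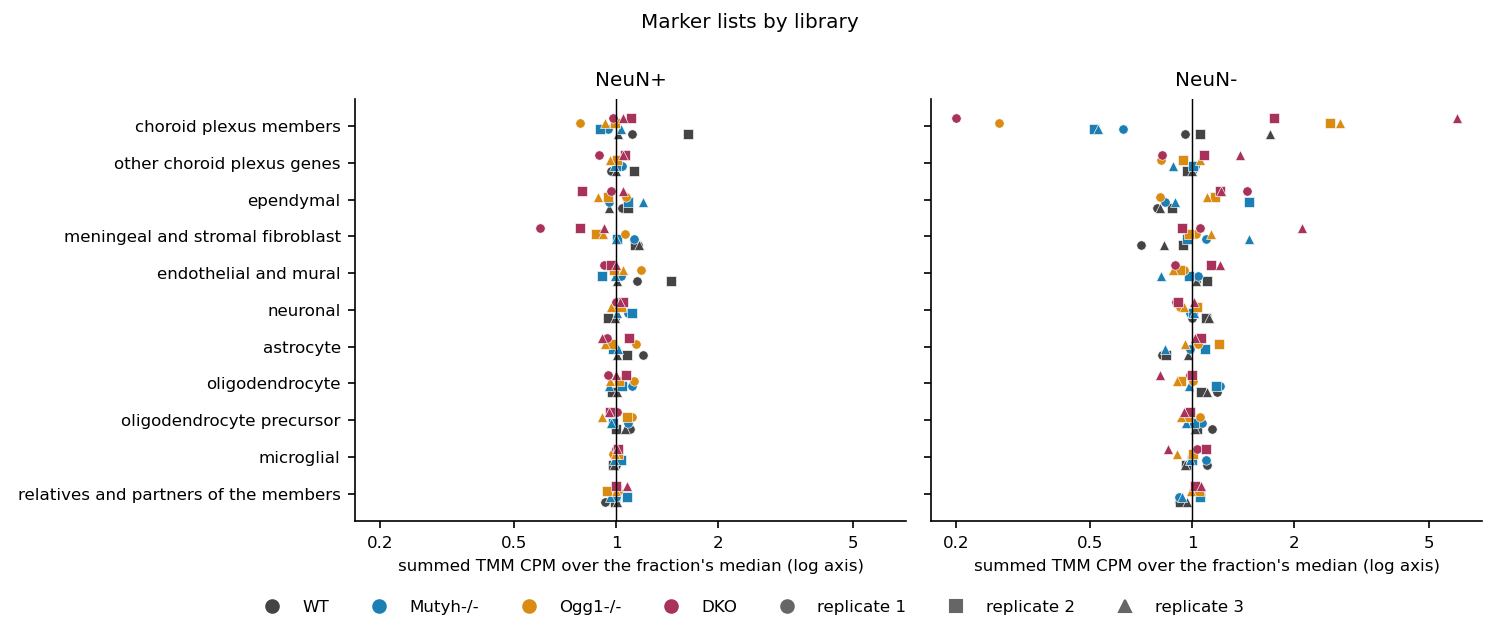
Summed TMM CPM of each marker list in each library, divided by the median of its fraction (log axis), with genotype as colour and replicate as shape. In NeuN- the sum of the 6 choroid plexus genes runs from 8.02 to 242 CPM around a median of 40.0, and the sum of every other list stays within a 2.99-fold range. The sum of the 20 other choroid plexus genes is mostly Enpp2, and 12 of those 20 genes varied over 5-fold in NeuN-.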

How the data were processed

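Per the labels and the methods, nuclear RNA of sorted hippocampal nuclei was sequenced as read pairs, and the authors aligned them to GRCm38 (mm10) with HISAT2 2.1.0 and counted them per gene of Ensembl release 102 with featureCounts. The deposited values are raw counts, unnormalized, per gene symbol and library. Strand, overlap and multiple alignments are not given in the sources used here. Depth was 56563586 to 96192142 counts per library. Counting error was small beside the spread between replicates for genes with many counts and a wide spread, such as Ttr in NeuN-. That does not hold in every group for the other genes. Examples are Folr1, Otx2 and Aqp1 in NeuN+, and Folr1 and Aqp1 in NeuN-, with as few as 12 and 19 counts there.

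The tools were edgeR 4.0.16 with limma 3.58.1 (in R 4.3.3), where the authors used edgeR 3.42.4. Each fraction was fitted with all 4 genotypes (filterByExpr, TMM, quasi-likelihood test, Benjamini-Hochberg over 30132 genes in NeuN+ and 31863 in NeuN-), and a fit of 24 libraries (33523 genes) gave differences between fractions. Log2 CPM used a prior count of 2. Scripts were tested on simulated counts. Alternatives were DESeq2 1.42.0, RLE size factors, no filter or at least 10 counts in every library, fits of 2 genotypes, a replicate block and fits without 1 library. No pair of libraries of a group held the same counts.

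Named genes are the 6 members, the 4 most abundant and any called of 20 other choroid plexus genes, the defining and any called genes of other lists, and the 5 genes most like Ttr per fraction. The members and lists were chosen with earlier results of these data known. A gene of the list of relatives is not reported here and was left out of that list. Positions are from GENCODE M21 and promoters from RefSeq.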

Additional observations from a re-analysis of the deposited data

How the results depend on the processing

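Replicates are the limit here: with 3 libraries per group, a log2 SD of 1.75 for Ttr within genotypes of NeuN- leaves intervals of over 4 log2 units, so a p above the threshold does not show equal levels. Of the differences of single members, 233 under other processing and 627 without 1 library kept their direction and side of the threshold, 6 (Folr1 and Clic6 between fractions of WT) lost the call without 1 library, 6 gained one, and 12 changed sign without 1 library. The 627 include fits whose left-out library was in neither group compared, and those fits say little of direction. With no filter on low counts, 2 differences from WT were called in NeuN+, both of Ttr, and with only the 2 genotypes compared 1 was in NeuN-, also of Ttr. With at least 10 counts in every library, 2 were called between fractions in WT and 2 over the mean of 4 genotypes, since Folr1 and Otx2 were no longer tested. Without 1 library the number called between fractions was 2 to 5 in WT and 4 to 5 over the mean. The range of the summed level without Ttr was 1.33-fold in NeuN+ and 19.9-fold in NeuN-.

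Differences from WT that changed sign without 1 library ran, in NeuN+, from -0.032 to 0.033 for Kl and -0.139 to 0.152 for Aqp1 in Mutyh-/-, and -0.084 to 0.13 for Kl in DKO. In DKO of NeuN- they ran from -0.365 to 1.627 for Ttr, -0.359 to 1.631 for Kl, -0.45 to 1.885 for Clic6, -0.324 to 1.118 for Aqp1 and -0.48 to 1.852 for Otx2, with the lowest in each case without DKO replicate 3. The cause was not tested. Of the 5 genes most like Ttr in NeuN-, 1 was shared under Spearman's correlation and 3 without removal of the genotype means, and in NeuN+ 1 and 0.

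The number of all genes called also depended on the processing. Against WT it was, without 1 library, 62 to 837 (Mutyh-/-), 70 to 250 (Ogg1-/-) and 36 to 180 (DKO) in NeuN+, and 31 to 435, 50 to 116 and 19 to 55 in NeuN-. Other settings gave 113 to 625, 172 to 308 and 89 to 252 in NeuN+, and 70 to 231, 73 to 179 and 10 to 178 in NeuN-. A replicate block changed no call of a member, with Ttr in Mutyh-/- of NeuN+ at -1.805 (adjusted p = 0.124). The numbers were not taken to pair the fractions' libraries, since deviations of same-numbered libraries correlated over 0.1 in only 9 of 12 pairs (range -0.00954 to 0.333). As a hint from the data, in DKO 3 of 3 libraries of either fraction correlated best with their own number, in Mutyh-/- and Ogg1-/- 2 of 3 in NeuN+ and 3 of 3 in NeuN-, and in WT 1 of 3 in each. With the block, the WT difference of Ttr between fractions was -2.799 (adjusted p = 3.06e-05), and the number of all genes called rose to 31 in Mutyh-/- and 53 in DKO for differences of effects between fractions, to 171 for DKO against WT in NeuN+ and to 63 in NeuN-.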
